A study of Mus musculus with 18 samples.

Results

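Sarcomeric actins, troponins and tropomyosin form the thin filament of heart muscle, and their transcripts were followed here through 7 genes: the actins Acta1 and Actc1, the troponins Tnni1, Tnni3, Tnnt2 and Tnnc1, and the tropomyosin Tpm1. Every probe set of chips 430A and 430B whose only gene symbol was one of these was taken, which gave 12 of 45265 probe sets; 7 genes stand here among 18193 with such a probe set. Tnnt2 had 3, Tpm1 had 4 and the other genes had 1 each. All 12 carried a symbol that matched the RefSeq gene of the same gene ID. A probe set is a group of short probes that together measure 1 transcript or a stretch of it, so the several probe sets of Tnnt2 and Tpm1 are not replicates.

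The hearts came from male mice that carried 2 transgenes: Tet-myrAkt1, a constitutively active version of the kinase Akt1 under a Tet promoter, and αMHC-tTA, which turns it on in heart muscle cells. Both transgenes were present in all 3 groups, the controls included. The first group of 3 hearts was taken before AAC, the operation that made the pressure overload, at an age of 8 weeks. The second group of 3 was taken 4 weeks after AAC, with an age label of 12 weeks. The third group of 3 was taken at 6 weeks, after the Akt transgene had been turned on. The titles give 3 weeks of Akt and the descriptions 2 weeks, and the age label is again 12 weeks. The description of 4-week heart 3 carries the number 1. No sham-operated or age-matched group was analysed here, so AAC, age and time cannot be told apart in the comparisons with the hearts before AAC. Between the later groups, the switch of Akt and 2 further weeks of overload cannot be told apart either. Whether RNA of several mice was pooled is not stated in the labels, so the p-values measure the spread between these samples.

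In the thin filament, actin monomers form a double strand along which tropomyosin lies. The troponin complex sits on tropomyosin: troponin C binds calcium, troponin I holds the filament in its inactive state and troponin T ties the complex to tropomyosin. Adult mouse heart muscle uses mainly cardiac α-actin (Actc1) and cardiac troponin I (Tnni3). Skeletal α-actin (Acta1) and slow skeletal troponin I (Tnni1) are isoforms expressed in the developing heart, and Acta1 is a classical marker of the fetal gene programme in overloaded rodent hearts.

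The 250 bases before the annotated start of Acta1, Actc1 and Tnni3 are shown. Acta1 was called in both comparisons with the hearts before AAC and Actc1 in neither, and Tnni3 was the troponin that passed the test in both. These bases come from RefSeq on GRCm38.p6 and are written 5′ to 3′ on the strand of the gene, which is the minus strand for all 3. Capitals mark a CArG box, the binding sequence of serum response factor, or CATTCC on either strand, the core of the sequence bound by TEAD factors. The CArG box was searched as CCWWWWWWGG, where W is A or T. Variants with a mismatch were not searched and stay in lower case.

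Acta1, chr8:123894776-123895025, minus strand: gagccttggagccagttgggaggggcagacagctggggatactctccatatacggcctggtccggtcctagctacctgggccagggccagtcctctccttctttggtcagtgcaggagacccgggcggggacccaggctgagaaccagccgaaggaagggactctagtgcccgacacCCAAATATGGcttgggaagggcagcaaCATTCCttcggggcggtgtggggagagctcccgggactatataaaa
Actc1, chr2:114052876-114053125, minus strand: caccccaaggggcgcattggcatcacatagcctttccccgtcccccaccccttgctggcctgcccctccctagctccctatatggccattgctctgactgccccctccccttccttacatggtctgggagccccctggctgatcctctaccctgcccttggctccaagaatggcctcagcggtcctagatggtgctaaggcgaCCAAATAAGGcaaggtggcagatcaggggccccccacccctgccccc
Tnni3, chr7:4522529-4522778, minus strand: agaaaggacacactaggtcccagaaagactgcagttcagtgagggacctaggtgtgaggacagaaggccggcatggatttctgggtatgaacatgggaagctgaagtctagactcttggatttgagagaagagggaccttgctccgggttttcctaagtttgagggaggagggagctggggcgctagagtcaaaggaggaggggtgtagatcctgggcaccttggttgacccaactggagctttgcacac

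Among the windows of the 7 genes, those of the 2 actins held a CArG box of that exact form. The Acta1 match CCAAATATGG began 73 bases before the start, and the Actc1 match CCAAATAAGG began 47 bases before it. CATTCC or its reverse complement GGAATG lay in the windows of Acta1 (46 bases before the start), Tpm1 (56), Tnnc1 (58) and 1 of the 2 windows of Tnnt2 (27). The matches did not overlap. Of 32851 windows of the same length, 1.47% held a CArG box and 12.6% held CATTCC on either strand. A match describes these letters and is no measurement of binding.

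The deposited values are MAS5 signals, an intensity on a linear scale. For testing, each array was brought to a common level per chip and log2(signal + 32) was taken, so fold changes are on that scale and understate the change of dim probe sets. A probe set is called higher or lower where its adjusted p (limma, Benjamini-Hochberg over 21852 probe sets) lies under 0.05. Of the 12 probe sets, 11 passed the filter on low signals (the 60% brightest of each chip), and the Tnni1 probe set did not. Within groups the 430A arrays correlated at r between 0.947 and 0.974, and array medians lay between 174.3 and 206.7 on chip 430A and between 62.2 and 70.5 on chip 430B. As a check of the labels, the Akt1 probe set 1425711_a_at had signals of 383.3 to 708.4 before AAC, 570.6 to 917.3 at 4 weeks and 2613.5 to 6534.6 with Akt on. Between 4 weeks and Akt on it rose 5.13-fold (limma adjusted p = 0.00277), while the other 2 tested Akt1 probe sets, 1416657_at and 1440950_at, differed by 0.008 and -0.018 and were not called.

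Acta1 had the widest range of the 11 tested probe sets. Its signal (1427735_a_at) was 4994, 10878 and 7147 in the 3 hearts before AAC. At 4 weeks it was 21909, 18419 and 15391. With Akt on it was 19532, 28341 and 24195. Every heart after AAC thus lay above every heart before it, while the 2 later groups overlapped. As log2 levels these were 12.84 ± 0.56 (SD, n = 3) before AAC, 14.17 ± 0.25 at 4 weeks and 14.54 ± 0.27 with Akt on. Among the signals of its own array, the probe set ranked 248 to 625 before AAC, 24 to 113 at 4 weeks and 19 to 33 with Akt on (rank 1 is the brightest).

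Actc1, the α-actin of the adult heart (1415927_at), moved far less. Its signal was 28159, 26775 and 23875 before AAC. At 4 weeks it was 21058, 20899 and 23759, and with Akt on 22985, 28719 and 25010. The 4-week hearts lay just below those before AAC, and the hearts with Akt on overlapped both groups.

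Cardiac troponin I, Tnni3 (1422536_at), was lower after AAC, where Acta1 was higher. Its signal was 36853, 32708 and 31954 before AAC. It was 23374, 23679 and 25058 at 4 weeks, and 23147, 24917 and 24768 with Akt on. All 6 later hearts lay below the 3 earlier ones, and the 2 later groups overlapped almost completely.

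Tnni1, the slow skeletal troponin I of the developing heart (1450813_a_at), stayed near the bottom of the scale. Its signal was 27.3, 37.3 and 26.5 before AAC and 22.5, 20.3 and 17.9 at 4 weeks. With Akt on it was 228.7, 30.5 and 29.3. Only heart 1 of the last group stood out, and the other 2 lay within the range of the hearts before AAC. In a fit without the filter, over 35041 probe sets, the Tnni1 difference between hearts with Akt on and hearts at 4 weeks was 0.94 (log2) with a limma adjusted p of 0.365. The other 2 comparisons had adjusted p of 0.824 and 0.419.

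Troponin T, Tnnt2, has 2 bright probe sets on chip 430A and 1 of lower signal, 1440424_at, on chip 430B. Signals on chip 430B are on a lower scale (trimmed mean 122.5 against 500.2 on chip 430A). Within chip 430B, 1440424_at lay at percentile 98.8. The bright 1418726_a_at read 20268, 18943 and 18040 before AAC, 16817, 15856 and 18007 at 4 weeks and 16179, 18815 and 19292 with Akt on. The bright 1424967_x_at, some of whose probes may also match other sequences, read 21339 to 24327 before AAC, 19560 to 20006 at 4 weeks and 19304 to 22773 with Akt on. On chip 430B, 1440424_at read 2181, 2318 and 1719 before AAC, 1354, 1128 and 1774 at 4 weeks and 1541, 588 and 871 with Akt on. The bright pair had its lowest means at 4 weeks, whereas 1440424_at was lowest in 2 of the hearts with Akt on. Over the 9 hearts the bright pair correlated at r = 0.865 with each other, and at r = 0.094 and 0.154 with 1440424_at. The probe sets of this gene thus disagreed.

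Troponin C, Tnnc1 (1418370_at), the calcium sensor, read 27059, 25766 and 25299 before AAC. It read 21025, 22045 and 20431 at 4 weeks and 18504, 24685 and 17694 with Akt on. All 6 later hearts lay below the earlier 3, with the widest spread in the hearts with Akt on, where heart 2 came close to the first group.

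Tropomyosin, Tpm1, has 1 bright probe set and 3 of lower signal, of which 1447713_at still lay at percentile 97.5 of chip 430B. The bright 1423049_a_at read 27925, 25903 and 26950 before AAC, 20756, 22254 and 24307 at 4 weeks and 26718, 28659 and 26581 with Akt on. The dim 1423721_at read 459, 597 and 505 before AAC, 325, 395 and 250 at 4 weeks and 283, 299 and 306 with Akt on. The first was low at 4 weeks alone, and the second was low in both later groups. The other 2 were less clear. 1447713_at on chip 430B read 893 to 1133, 638 to 1058 and 841 to 1157 in the 3 groups, which all overlap, with the lowest mean at 4 weeks as for 1423049_a_at. 1456623_at read 281 to 355, 252 to 335 and 175 to 278, with the hearts with Akt on just below those before AAC. Over the 9 hearts 1423049_a_at correlated at r = 0.141 with 1423721_at and at r = 0.714 with 1447713_at.

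**Figure D1:**
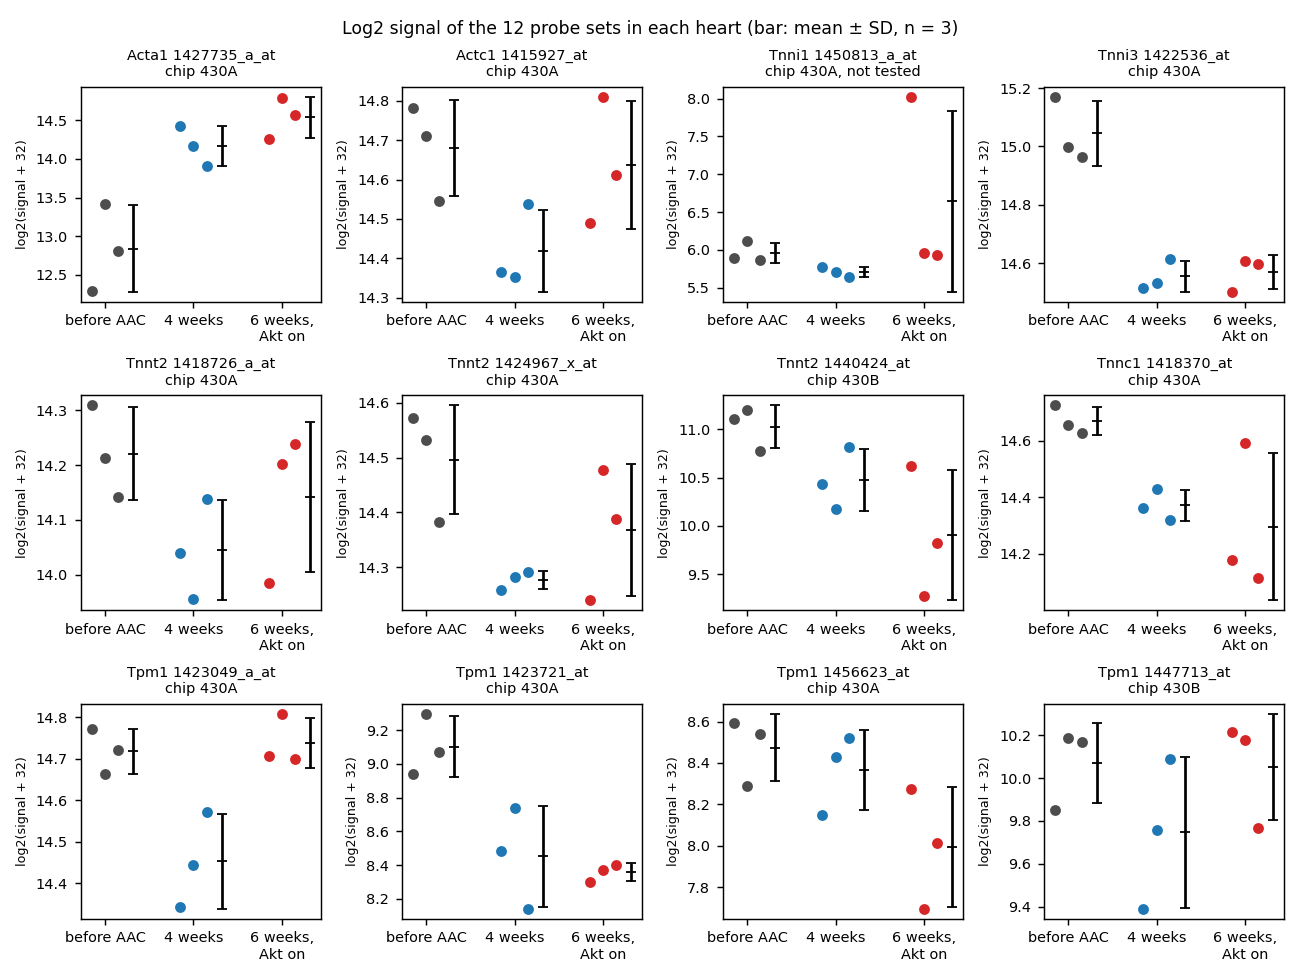
Log2(signal + 32) of the 12 probe sets in each of the 9 hearts, 1 panel per probe set with its own vertical scale; points are hearts (grey before AAC, blue at 4 weeks, red with Akt on) and bars are mean ± SD, n = 3. Acta1 was above its earlier level in all 6 hearts after AAC, Tnni3 was below it in all 6, and Tnni1 stood out in heart 1 with Akt on alone.

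The first comparison asks how the overloaded heart at 4 weeks differed from the heart before AAC. Acta1 rose 2.51-fold, by 1.33 on the log2 scale (SE 0.24, 95% CI 0.81 to 1.85, limma adjusted p = 0.0146, n = 3 against 3). Tnni3 fell by 0.49 (SE 0.092, 95% CI -0.69 to -0.29, limma adjusted p = 0.0166). The Tpm1 probe set 1423721_at fell by 0.65 (SE 0.17, limma adjusted p = 0.0485). The other 8 tested probe sets were not called, although 10 of the 11 differences were negative. In all, 1 was called higher against a background of 3.59% of all tested probe sets, and 2 were called lower against 2%. The median difference of the 11 was -0.265, beside -0.018 over all probe sets tested.

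The signs of the bright members depend on how the arrays were scaled. Actc1 had a difference of -0.26 (adjusted p = 0.184), Tnnc1 of -0.30 (0.166), the bright Tnnt2 pair of -0.18 (0.34) and -0.22 (0.202), and the bright Tpm1 probe set of -0.265 (0.113). None of these was called, and all 5 turned to between 0.065 and 0.142 when the arrays were quantile normalized. Under that scaling the fall of Tnni3 was -0.031 (adjusted p = 0.86), so its call was lost. The rise of Acta1 was 1.52 (adjusted p = 0.00831). Among the 100 brightest tested probe sets of chip 430A, a set chosen after its values were seen, the 93 of other genes had a median difference of -0.35 from before AAC to 4 weeks, 89 of them negative and 33 called lower. Under quantile normalization that median was -0.007. The highest signal of an array was 39299.5 to 45101 before AAC and 30634.6 to 31624.6 at 4 weeks. The small falls of the bright thin filament probe sets thus lay beside a like shift of other bright probe sets, and its part in them was not tested.

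The call of Acta1 at 4 weeks was lost without before-AAC heart 3 (1.31, adjusted p = 0.0594) and without 4-week heart 2 (1.33, adjusted p = 0.06), with its size unchanged. Tnni3 was no longer called without before-AAC heart 1 (-0.43, 0.0583), 2 (-0.51, 0.0581) or 3 (-0.53, 0.0568) or 4-week heart 1 (-0.47, 0.051) or 2 (-0.48, 0.0733). Tpm1 1423721_at, just inside the threshold, lost its call on leaving out any 1 of the 6 hearts compared (-0.79 to -0.49), and on leaving out heart 2 (0.057) or 3 (0.0581) with Akt on, which changes the estimate of spread only. Its call was also lost after quantile normalization (0.0506), without the filter (0.0829), without the variance trend (0.0596), with only the 6 hearts compared (0.0547), with the replicate block (0.0626), with 4-week hearts 1 and 3 averaged (0.104), with the atrial covariate (0.0678) and without the 4 hearts of highest atrial score (0.522).

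**Figure D2:**
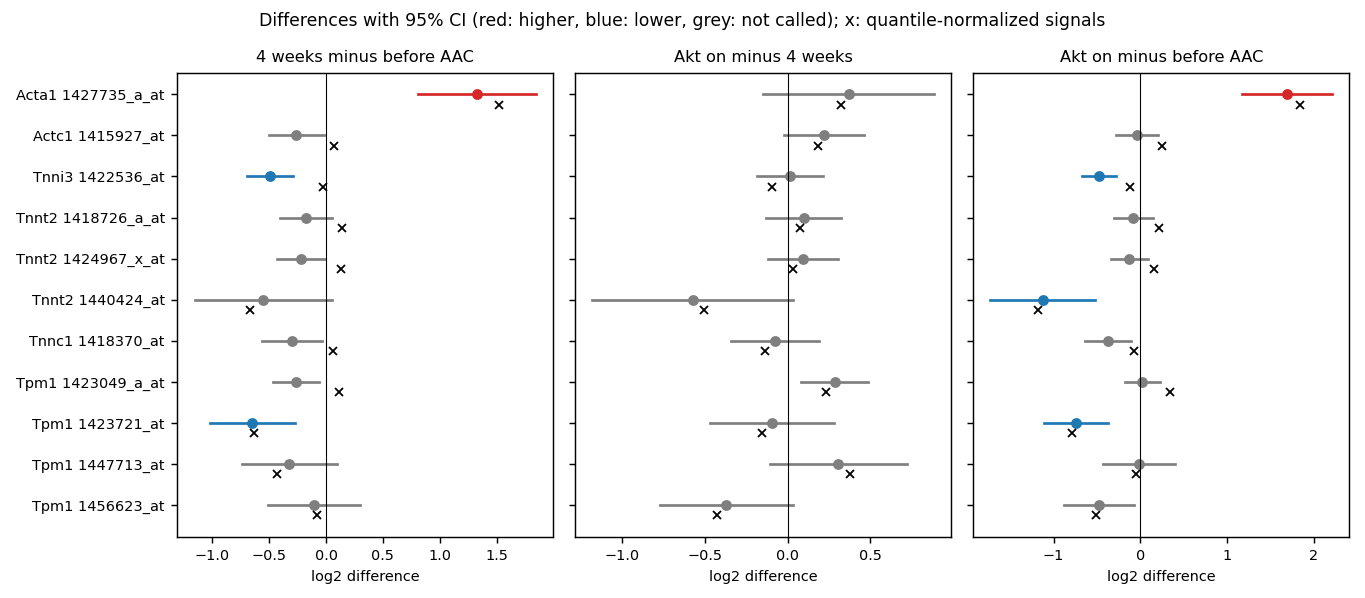
Log2 differences of the 11 tested probe sets in the 3 comparisons, with 95% confidence intervals; red is called higher, blue called lower and grey not called, and crosses give the difference after quantile normalization. Acta1 was called higher in both comparisons with the hearts before AAC under either scaling, while Actc1, both bright Tnnt2 probe sets and (at 4 weeks) Tnnc1 and Tpm1 1423049_a_at change sign between the scalings.

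**Figure D3:**
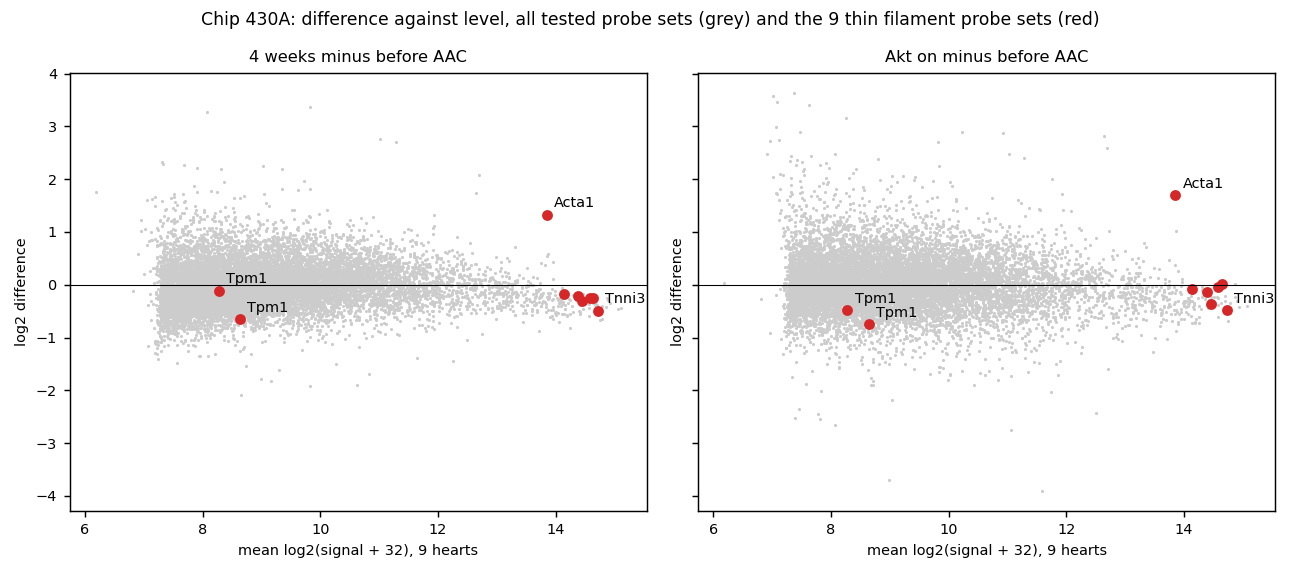
Log2 difference (vertical) against mean log2(signal + 32) over 9 hearts (horizontal) for the tested probe sets of chip 430A in grey and the 9 thin filament probe sets in red, for both comparisons with the hearts before AAC. At the bright end the grey cloud lies below 0, the bright thin filament probe sets lie in or near it, and Acta1 lies far above; after quantile normalization the brightest probe sets centre near 0.

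The second comparison sets the hearts with Akt on against those at 4 weeks. No thin filament probe set was called, against backgrounds of 1.41% higher and 1.89% lower. Of the 11 differences, 7 were positive and 4 negative, with a median of 0.091 beside 0.026 over all probe sets tested, and 1 had an unadjusted limma p under 0.05. That one was the bright Tpm1 probe set 1423049_a_at, whose 3 hearts with Akt on all lay above the 3 at 4 weeks. Its difference was 0.286 (SE 0.093, 95% CI 0.083 to 0.488, adjusted p = 0.123), and with an atrial score as covariate it was called (0.30, adjusted p = 0.0473). Acta1 differed by 0.37 (95% CI -0.15 to 0.89, adjusted p = 0.447). Actc1 differed by 0.22 (95% CI -0.021 to 0.46, adjusted p = 0.318). Tnni3 differed by 0.014 (95% CI -0.19 to 0.21), with a sign that turned under quantile normalization (-0.091). The dim Tnnt2 probe set 1440424_at differed by -0.57 (adjusted p = 0.298), and without heart 1 with Akt on it was called lower (-0.93, adjusted p = 0.0474).

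The third comparison spans the whole course, from before AAC to 6 weeks with Akt on. Acta1 was 3.25-fold higher, by 1.70 (SE 0.24, 95% CI 1.18 to 2.22, limma adjusted p = 0.00151). Tnni3 fell by 0.48 (SE 0.092, limma adjusted p = 0.00631). Tpm1 1423721_at fell by 0.74 (SE 0.17, limma adjusted p = 0.0143), and Tnnt2 1440424_at fell by 1.12 (SE 0.28, limma adjusted p = 0.0187). With 1 called higher and 3 lower of 11, the background was 8.25% higher and 6.77% lower. The median difference was -0.128, beside 0.011 over all probe sets tested. This comparison shares the hearts before AAC with the first and the hearts with Akt on with the second, so the 3 are not independent.

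Of the other bright members, Actc1 and Tpm1 1423049_a_at lay closest to their starting level with Akt on. Actc1 had a difference of -0.041 (adjusted p = 0.841) and the Tpm1 probe set one of 0.021 (0.909). After quantile normalization these 2 were called higher, at 0.25 (adjusted p = 0.0435) and 0.35 (adjusted p = 0.0307). The bright Tnnt2 pair had differences of -0.079 and -0.128, which turned to 0.215 and 0.164 under that scaling without being called. Tnnc1 differed by -0.37 (95% CI -0.64 to -0.11, adjusted p = 0.0576), just outside the threshold, and was called without heart 2 with Akt on (-0.52, adjusted p = 0.0081), with a filter at the brightest 40% (0.0445), with adjustment within each chip (0.0451) and with the atrial covariate (0.0298); after quantile normalization it was -0.072 (0.599).

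The call of Acta1 in the third comparison held under all 24 alternatives run, with values of 1.43 to 1.99 on leaving out single hearts and 1.84 after quantile normalization. That of Tnni3 was lost after quantile normalization (-0.12, adjusted p = 0.312), where the 93 other bright probe sets had a median of -0.039, against -0.34 in the scaling used here. Tpm1 1423721_at was still called after quantile normalization (-0.79, adjusted p = 0.00964) but not without before-AAC heart 2 (-0.65, 0.0611). Tnnt2 1440424_at was called after quantile normalization (-1.18, adjusted p = 0.019). It was not called without before-AAC heart 1 (-1.08, 0.0587) or 2 (-1.04, 0.0669), or without heart 2 (-0.81, 0.0661) or 3 (-1.08, 0.0623) with Akt on. Tpm1 1456623_at differed by -0.48 (adjusted p = 0.103) and was called without heart 1 with Akt on (-0.62, 0.0428).

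The levels of Acta1 were thus ordered before AAC, 4 weeks, Akt on, from low to high, and the last pair did not differ beyond the spread between hearts. Those of Tnni3 were ordered before AAC above both later groups, which did not differ from each other. For the bright Tpm1 probe set the 4-week hearts were lowest and the other 2 groups overlapped. The orders of Tnni3 and Tpm1 depend on the scaling: after quantile normalization Tnni3 differed by -0.031 at 4 weeks, and Tpm1 1423049_a_at was lowest before AAC, by 0.114 against 4 weeks and by 0.346 against Akt on.

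A difference taken within each heart does not depend on a constant factor per array. The log2 signal of Acta1 minus that of Actc1 was -2.49, -1.30 and -1.74 before AAC. It was 0.057, -0.18 and -0.62 at 4 weeks and -0.24, -0.019 and -0.048 with Akt on. The zero of this scale has no meaning, since 2 probe sets differ in how strongly they report, but its change describes how unequally the pair of actins moved. A shift that depends on the brightness of a probe set is not removed by this difference. The change of Acta1 minus Actc1 was 1.59 from before AAC to 4 weeks, 1.74 from before AAC to Akt on and 0.15 between the later groups. Exact two-sided permutation tests gave p = 0.1, 0.1 and 0.7, where 0.1 is the smallest p that 3 hearts against 3 allow. Adjusted over the 6 such tests run, these were 0.15, 0.15 and 0.7. For Tnni1 minus Tnni3 the changes were 0.24, 1.16 and 0.92 in the same order (exact permutation p = 0.2, 0.1 and 0.1, adjusted 0.24, 0.15 and 0.15). The last 2 rest mostly on heart 1 with Akt on, without which they were 0.44 and 0.20. The first turned to -0.076 after quantile normalization. At 4 weeks Tnni1 itself differed by -0.252 from before AAC and Tnni3 by -0.491, so the positive change there came with no rise of Tnni1. Actin genes are alike in sequence, and cross-hybridization between the actin probe sets was not tested.

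**Figure D4:**
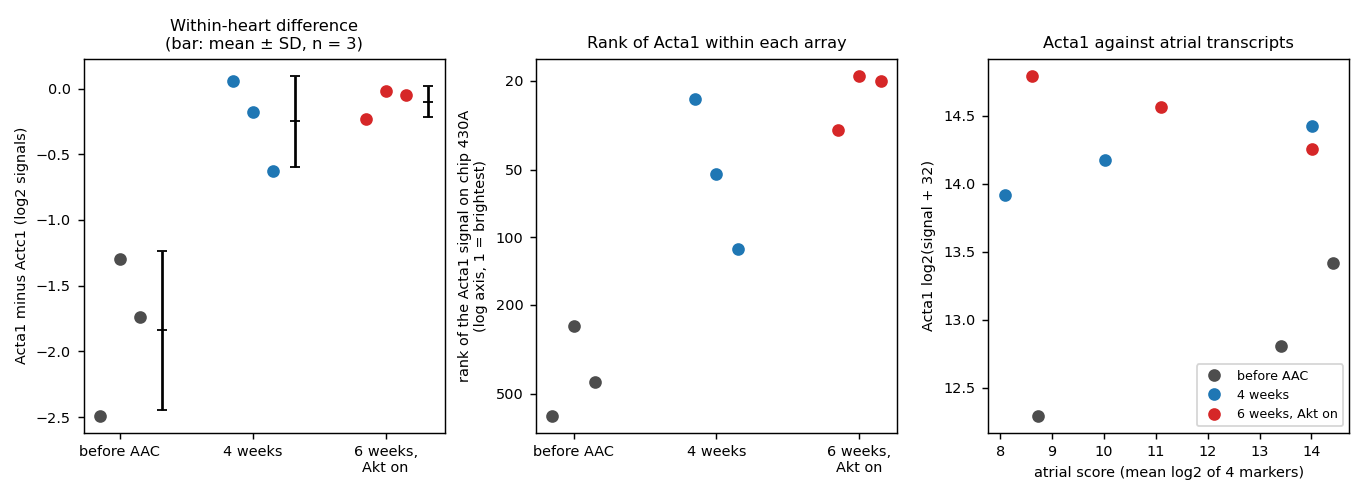
Left, log2 signal of Acta1 minus that of Actc1 in each heart, with mean ± SD (n = 3) per group; middle, rank of the Acta1 signal on chip 430A on an inverted log axis; right, Acta1 log2(signal + 32) against the atrial score, the mean log2 signal of Nppa, Myl4, Myl7 and Sln. The difference and the rank separate the 3 hearts before AAC from the 6 later ones, and hearts of high and low atrial score occur in every group.

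The thin filament genes are made by heart muscle cells, and in whole hearts fewer such cells and less RNA per cell cannot be told apart. Markers of 5 tissues fixed as lists gave the following. The summed signal of 6 heart muscle genes (Myh6, Myl2, Myl3, Pln, Ryr2 and Csrp3) on chip 430A was 246909 to 275339 before AAC, 204734 to 219122 at 4 weeks and 168829 to 231278 with Akt on, so that every heart before AAC lay above every later heart, as it did for Tnni3 and Tnnc1. Of its 12 probe sets 1 was called higher and 0 lower at 4 weeks, 0 between the later groups, and 2 higher and 4 lower from before AAC to Akt on. Over all tested probe sets the shares called higher and lower were 3.59% and 2%, 1.41% and 1.89%, and 8.25% and 6.77%, in that order. This sum comes mostly from bright probe sets, whose shift depends on the scaling. It was taken from the deposited signals and was not computed after quantile normalization. The summed signal of 7 atrial genes ranged from 21237 to 123784 before AAC, 27365 to 107121 at 4 weeks and 27351 to 99197 with Akt on. Hearts 2 and 3 before AAC, heart 1 at 4 weeks and heart 1 with Akt on had the highest atrial scores, 13.4 to 14.4, against 8.09 to 11.1 in the other 5. Without these 4 hearts, which leaves 1 heart before AAC that is assumed to vary like the others, Acta1 was higher by 1.75 at 4 weeks (adjusted p = 0.0555) and by 2.38 with Akt on (adjusted p = 0.00561). With the atrial score as a covariate the Acta1 differences were 1.42 (adjusted p = 0.0108) and 1.76 (adjusted p = 0.000961). Tnni1 stood out in one of the 4 hearts of high atrial score and in none of the other 3.

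Skeletal muscle, where Acta1 is the main actin, was checked by 12 genes, of which 2 passed the filter. Its summed signal of 27359 to 29804 before AAC, 20411 to 23614 at 4 weeks and 20449 to 24394 with Akt on came almost wholly from Ckm, which heart muscle expresses too. The defining genes Myh1, Myh2, Myh4, Actn3, Tnni2, Tnnt3, Mylpf, Myod1 and Myog lay below the filter. None of the 3 tested probe sets was called in any comparison. The summed signal of 5 smooth muscle genes was 4231 to 7436, 3078 to 5398 and 2768 to 5572, with 1 of 5 tested probe sets called higher from 4 weeks to Akt on and 1 lower from before AAC to Akt on. That of 6 fibroblast genes was 35246 to 39733, 26168 to 40846 and 38557 to 60315. Of its 13 probe sets 6 were called higher from 4 weeks to Akt on and 5 from before AAC to Akt on. Over all tested probe sets 1.41% were called higher from 4 weeks to Akt on. From before AAC to Akt on the shares were 8.25% higher and 6.77% lower.

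RNA quality moved with the groups as well. The 3′/5′ ratio of the β-actin control was 1.487, 1.945 and 2.04 before AAC, 1.137 to 1.212 at 4 weeks and 1.041 to 1.22 with Akt on. The ratio for Gapdh was 1.072 to 1.316, 0.828 to 0.888 and 0.809 to 0.93. Both ratios were higher in every heart before AAC than in every later heart, and their part in the differences against that group was not tested.

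A fixed rule named, for each member, the 3 other genes whose log2 signal over the 9 hearts had the highest Pearson r with it, as a description with no test. The hearts fall into groups, so any gene that differs between groups can correlate in this way. For Acta1, searched against 11884 genes, they were Brsk2 (r = 0.982), a kinase of the nervous system, Aspn (0.981), an extracellular matrix protein, and Ttc39a (0.98). For Tnni3 they were Ndufb11 (0.985), a subunit of respiratory complex I, Icam2 (0.979), an adhesion molecule of endothelium, and Micos10 (0.977), a protein of the mitochondrial inner membrane. For Actc1 they were Nrm (0.93), Krt73 (0.925) and Actb (0.923), the last a cytoplasmic actin. For the brightest Tnnt2 probe set they were Mdh1 (0.949), Dnm3 (0.935) and Mb (0.931), the last being myoglobin. For Tnnc1 they were Ajuba (0.974), Xbp1 (0.96) and Atp5b (0.952), and for the bright Tpm1 probe set Reep5 (0.974), Slc37a2 (0.944) and Myoz1 (0.944), the last a protein of the Z-disc. For Tnni1 they were Sfxn3 (0.97), Bud13 (0.964) and Tgfb1i1 (0.946), and there 1 heart sets the correlation. Among the members themselves, in the scaling used here, Acta1 and Tnni3 ran opposite (r = -0.911), while Actc1 ran with the bright Tnnt2 probe set 1424967_x_at (r = 0.891). After quantile normalization Tnni3 differed from before AAC by -0.031 at 4 weeks and by -0.122 with Akt on. Correlations were not computed under that scaling.

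Other isoforms of thin filament proteins were followed through 11 genes, of which 8 were tested with 14 probe sets. None was called at 4 weeks (backgrounds of 3.59% higher and 2% lower) or between the later groups (1.41% and 1.89%). In these comparisons 3 and 1 had an unadjusted limma p under 0.05. From before AAC to Akt on 1 rose and 1 fell (backgrounds of 8.25% and 6.77%), and 6 had an unadjusted limma p under 0.05. The share of all tested probe sets under that unadjusted threshold was not counted, so these unadjusted counts have no background beside them. The list had medians of -0.116, 0.274 and -0.01 over the 3 comparisons. The one that rose was Tpm2, β-tropomyosin, with log2 levels on 1449577_x_at of 5.10, 6.52 and 6.33 before AAC, 7.71, 7.38 and 6.00 at 4 weeks and 7.61, 8.52 and 7.96 with Akt on. It was 4.12-fold higher with Akt on than before AAC (2.04, SE 0.47, limma adjusted p = 0.0142) and lost the call without heart 2 with Akt on (1.80, 0.0598). This probe set lay at percentile 40.5 of its chip, just past the filter. Its signals were 2.4, 60 and 48.4 before AAC and 163.6, 334.5 and 217 with Akt on. Its place past the filter thus rests on the hearts where it was high. The hearts before AAC lay near the floor, and the difference ran from 1.595 to 3.135 under the alternatives other than single hearts left out. The other 3 tested Tpm2 probe sets differed by 0.683 to 1.867 in that comparison and were not called. At 4 weeks the difference of 1449577_x_at was 1.04 (adjusted p = 0.209). The one that fell was the Actb probe set 1419734_at, at -0.56 (limma adjusted p = 0.0489), close to the threshold, while the other Actb probe set, 1436722_a_at, differed by -0.019 (adjusted p = 0.935). Actb lost this call without before-AAC heart 2 (-0.50, 0.15) or 3 (-0.49, 0.171), 4-week heart 2 (0.053) or 3 (0.0591), or heart 1 (-0.54, 0.0929) or 3 (-0.45, 0.161) with Akt on. Among those not called, Actg1 differed by -0.45 at 4 weeks (adjusted p = 0.0668) and Acta2, smooth muscle actin, by -0.86 from before AAC to Akt on (adjusted p = 0.109).

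Genes of thin filament assembly, capping and anchoring were tested with 34 probe sets of 20 genes out of 23 listed. At 4 weeks 4 rose and none fell, between the later groups 2 rose and 2 fell, and from before AAC to Akt on 11 rose and 3 fell, beside the backgrounds given above for the members. In the same order 17, 13 and 22 had an unadjusted limma p under 0.05 in either direction. For these unadjusted counts too, the share over all tested probe sets was not counted. Medians were 0.245, 0.132 and 0.229. At 4 weeks Cfl2, the muscle cofilin that severs actin filaments, rose by 0.62 on 1418067_at (limma adjusted p = 0.0223), from log2 levels of 11.98 ± 0.058 to 12.61 ± 0.10 (SD, n = 3). Capza2, a subunit of the barbed-end cap CapZ, rose by 0.72 on 1423058_at (limma adjusted p = 0.0291), and Nrap, an anchor of terminal actin filaments, by 0.40 (limma adjusted p = 0.044). Each of these 3 calls was lost on leaving out before-AAC heart 1, 2 or 3 or 4-week heart 1 or 2, at values of 0.56 to 0.65 for Cfl2, 0.67 to 0.78 for Capza2 and 0.36 to 0.42 for Nrap; that of Nrap was also lost without heart 3 with Akt on (0.0531). The second probe set of Capza2, 1423057_at, did not follow the first: it differed by -0.092 at 4 weeks and was not called. It fell by 0.42 from before AAC to Akt on, where 1423058_at rose by 0.65. The Cfl2 probe set 1418066_at rose as well at 4 weeks (0.648, limma adjusted p = 0.0329). Cfl2 1431432_at on chip 430B differed there by -0.042 and was not called.

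Leiomodin 3 (Lmod3), a nucleator of thin filaments, fell with Akt on. Its log2 level on 1439658_at was 10.63, 10.77 and 10.59 before AAC, 10.63, 10.63 and 11.09 at 4 weeks and 9.50, 9.39 and 8.96 with Akt on. All 3 hearts with Akt on lay below the other 6. The fall was 1.50 against 4 weeks (SE 0.17, 2.83-fold, limma adjusted p = 0.00135), a call kept under all 24 alternatives, and 1.38 against before AAC (adjusted p = 0.000875). Tropomodulin 4 (Tmod4), a pointed-end cap, fell by 0.88 against 4 weeks (limma adjusted p = 0.0124) and by 1.34 against before AAC (limma adjusted p = 0.000644). Without 4-week heart 3 the first of these Tmod4 calls was lost (-0.84, 0.0585). Nebulette (Nebl), which anchors thin filaments at the Z-disc, rose by 1.72 from before AAC to Akt on for 1451846_at (limma adjusted p = 0.00202). Against 4 weeks Nebl rose by 1.06 (adjusted p = 0.047), a call lost after quantile normalization (0.985, 0.0572) and on leaving out any heart but 4-week heart 2 (0.86 to 1.33 over all 9). Cfl1, the general cofilin, rose by 0.80 against 4 weeks on 1448346_at (limma adjusted p = 0.0104), with its other probe set at 0.316 and not called. Capza1 rose by 0.85 from before AAC to Akt on (limma adjusted p = 0.00362).

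Transcription factors and co-factors known to act on sarcomeric actin and troponin genes were tested with 36 probe sets of 15 genes. At 4 weeks 3 rose and none fell, against backgrounds of 3.59% and 2%. None was called between the later groups, where the backgrounds were 1.41% and 1.89%. From before AAC to Akt on 4 rose and 5 fell, against backgrounds of 8.25% and 6.77%. An unadjusted limma p under 0.05 was found for 9, 7 and 16 probe sets in the 3 comparisons, again with no share over all tested probe sets counted. Medians were 0.001, -0.073 and -0.034. At 4 weeks Gata4 rose by 1.08 on 1418864_at (limma adjusted p = 0.0286) and Mef2a by 0.86 on 1427186_a_at (limma adjusted p = 0.0232). Of the other 4 tested Mef2a probe sets 1421252_a_at rose as well (0.91), and 1427185_at (-0.193), 1452347_at (0.161) and 1442623_at (0.017) were not called. The second Gata4 probe set, 1418863_at, differed by 0.251 and was not called. The Gata4 call was lost without before-AAC heart 1, 2 or 3 or 4-week heart 1 or 2 (0.88 to 1.18). The Mef2a call was lost without before-AAC heart 1 or 3 or 4-week heart 2 or 3 (0.73 to 0.91). From before AAC to Akt on Gata4 rose by 1.20 (limma adjusted p = 0.00777).

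Serum response factor (Srf), whose binding sequence is the CArG box, fell by 0.57 from before AAC to Akt on for 1418255_s_at (SE 0.13, limma adjusted p = 0.0146). Any part of Srf in the levels of the actins was not tested. The log2 levels of this Srf probe set were 10.10, 10.33 and 10.20 before AAC, 9.99, 9.98 and 10.08 at 4 weeks and 9.77, 9.45 and 9.69 with Akt on. The groups did not overlap, but the Srf call was lost without before-AAC heart 2 (-0.51, 0.0621) or 3 (-0.58, 0.0537) or heart 2 with Akt on (-0.48, 0.0526), and the other Srf probe set, 1418256_at, differed by -0.069. Hopx, a homeodomain protein without DNA binding that opposes Srf, fell by 1.00 on 1428662_a_at (limma adjusted p = 0.0032). Mef2d fell by 0.61 on 1434487_at (limma adjusted p = 0.00725), while its other 2 tested probe sets, 1421388_at and 1437300_at, differed by 0.151 and 0.181 and were not called. Quantile normalization kept the sign of every called list gene described here by its smallest p. Without the 4 hearts of highest atrial score these calls were lost, that of Lmod3 against 4 weeks excepted.

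**Figure D5:**
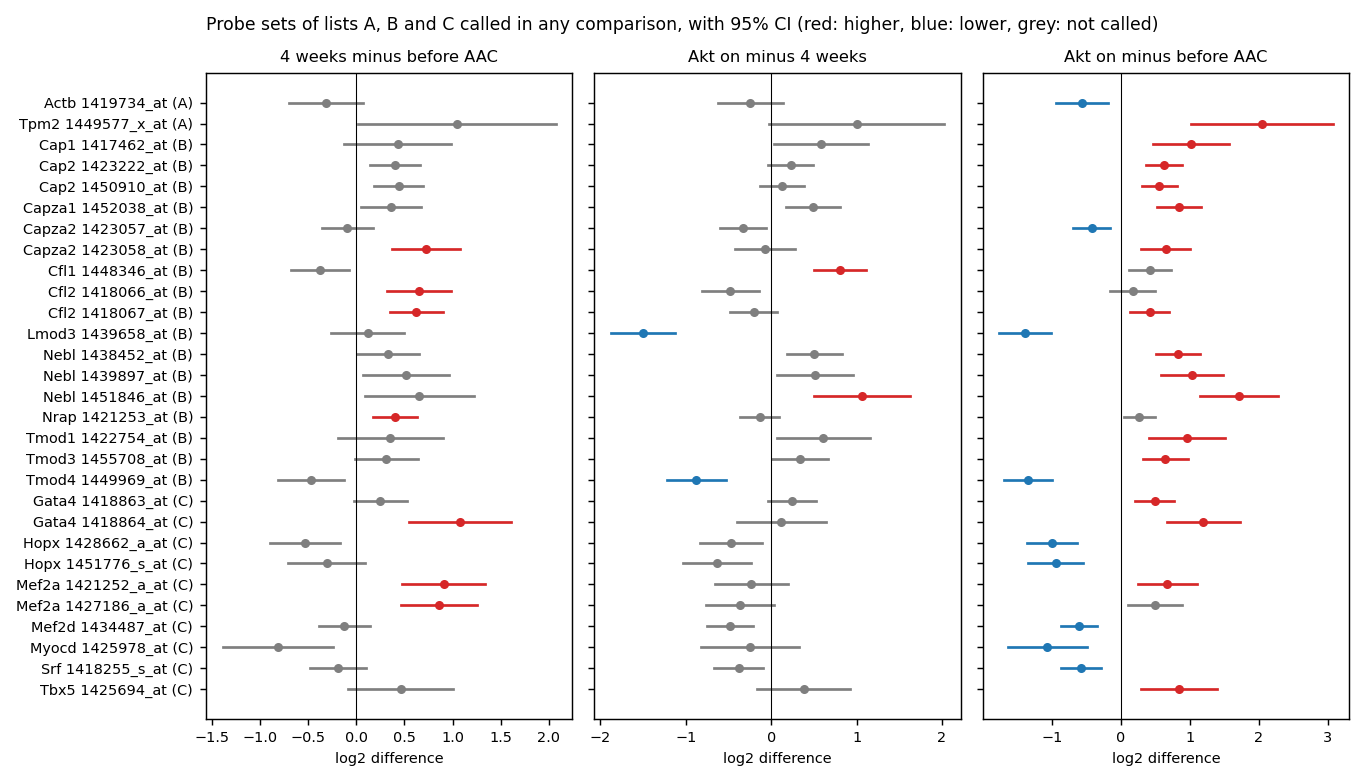
Log2 differences with 95% confidence intervals in the 3 comparisons for the 29 probe sets of the 3 lists (A other isoforms, B assembly and anchoring, C transcription factors) called in at least 1 of them; red is higher, blue lower and grey not called. The Lmod3 and Tmod4 intervals lie below 0 in both comparisons with the hearts with Akt on, and Nebl rises on all 3 of its probe sets from before AAC to Akt on.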

How the data were processed

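The deposited values are intensities, MAS5 signals that the authors made per the submitters' processing notes; version and chip description file are not given in the sources used here. The deposited intensities had been scaled to a trimmed mean (2% off each end) of 500.2 on chip 430A and 122.5 on chip 430B, so the pseudocount of 32 weighs on 430B as 130.7 would on 430A. Total RNA was isolated and biotin-labelled by standard procedures, per the labels. Here the arrays of a chip were scaled to the mean of their trimmed means and log2(signal + 32) was taken. Of 45265 probe sets, 128 controls, 936 with several symbols and 9160 with none were left out, and the 60% brightest of each chip were kept, leaving 21852. Symbols came from the platform annotation. A linear model of the 3 group means was fitted per chip in R 4.3.3 with limma 3.58.1 (lmFit, eBayes with a variance trend), with two-sided contrasts and Benjamini-Hochberg adjustment over both chips; the median SE of a difference was 0.121 for the members and 0.194 over all. The number of arrays, 3 per group, limits the precision. The fit was tested on simulated data.

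All probe sets of the 7 members are reported. Of 3 lists (other isoforms, assembly, transcription factors), up to 4 genes with the smallest p in each comparison could be named, 1 probe set a gene. Further ones named (other probe sets of Capza2, Cfl1, Cfl2, Srf, Mef2a, Mef2d, Gata4, Tpm2 and Actb) were chosen after their values were seen. The members and lists were chosen with earlier results of these data known. Marker lists covered heart muscle, atrium, skeletal muscle, smooth muscle and fibroblasts. Equal replicate numbers did not pair hearts (correlations of deviations -0.246 to 0.145 for equal and -0.164 to 0.202 for other numbers). Alternatives were another scaling, pseudocount, filter, variance model, adjustment or set of samples, an atrial score, and each heart left out.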

Additional observations from a re-analysis of the deposited data

How the results depend on the processing

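Depth in the sense of signal limits Tnni1, whose values lie near the floor, and 3 arrays per group limit everything else. With a replicate block the members called lower at 4 weeks were 1 instead of 2, Acta1 kept its limma calls (1.33, adjusted p = 0.0259, and 1.70, adjusted p = 0.0025), and exact sign-flip permutation tests over replicate numbers gave the Acta1 minus Actc1 changes p = 0.25, 0.75 and 0.25; the numbers did not pair the hearts. The count called lower at 4 weeks (2) was 0 after quantile normalization, without the filter, without the variance trend and without the 4 hearts of highest atrial score, 1 with 1 probe set a gene or with 4-week hearts 1 and 3 averaged, and 0 to 2 on leaving out single hearts. The count called higher at 4 weeks (1) was 0 without those 4 hearts and 0 to 1 on leaving out single hearts. Between the later groups 1 was called higher with the atrial covariate, and 0 to 1 lower on leaving out single hearts. From before AAC to Akt on, 3 were called higher after quantile normalization (1 otherwise), and the count called lower (3) was 1 with 1 probe set a gene, 0 without the 4 hearts and 1 to 4 on leaving out single hearts. Over all probe sets the counts on leaving out single hearts were 88 to 1074 higher (784) and 30 to 641 lower (438) at 4 weeks, 110 to 265 (308) and 144 to 371 (413) between the later groups, and 913 to 1943 (1803) and 689 to 1754 (1480) from before AAC to Akt on; under the other alternatives they were 5 to 1028, 0 to 677, 50 to 340, 46 to 465, 225 to 1978 and 84 to 1618.

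After quantile normalization signs turned for Actc1 (0.069 at 4 weeks, 0.252 with Akt on against before), Tnnc1 (0.065 at 4 weeks), the bright Tnnt2 pair (0.142 and 0.128 at 4 weeks, 0.215 and 0.164 with Akt on against before), Tpm1 1423049_a_at (0.114 at 4 weeks), Tnni3 (-0.091 with Akt on against 4 weeks) and Tnni1 minus Tnni3 (-0.076 at 4 weeks). Tpm1 1423049_a_at from before AAC to Akt on was -0.002 with the atrial covariate and -0.017 without the 4 hearts, and Tpm1 1447713_at without them was 0.071 at 4 weeks and 0.119 with Akt on against before. On leaving out single hearts, differences near 0 changed sign from before AAC to Akt on for Actc1 (-0.128 to 0.032), Tpm1 1423049_a_at (-0.014 to 0.047) and Tpm1 1447713_at (-0.124 to 0.126), and between the later groups for Tnni3 (-0.006 to 0.048), Tpm1 1423721_at (-0.251 to 0.048), Tnnc1 (-0.225 to 0.015) and Acta1 minus Actc1 (-0.038 to 0.303). Apart from the construction of each alternative (fewer hearts or other genes tested), the cause of these changes was not tested.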
